A study of Ovis aries with 15 samples.

Results

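The 10 listed genes encode enzymes that build the choline, ethanolamine and serine head groups of membrane phospholipids in animals, and their transcripts were measured in the mammary gland of sheep (Ovis aries). The members were chosen by symbol. Of the 10 symbols, 9 had a row of that name among the 24691 features of the deposited table, and all 9 passed the filter on low reads that left 13345 features to compare. The remaining gene, PEMT, had no row under its symbol. The row LOC101112913 carries the gene ID that RefSeq names PEMT, so it is given beside the others as the LOC101112913 row and is not counted among the 9.

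Phosphatidylcholine and phosphatidylethanolamine, the main phospholipids of animal membranes, are made by parallel routes known as the Kennedy pathway. A kinase phosphorylates free choline or ethanolamine, a cytidyltransferase uses CTP to turn the product into its CDP form, and a final transferase moves the head group onto diacylglycerol. Phosphatidylserine is made by exchanging serine for the head group of an existing phospholipid, mitochondria decarboxylate it to phosphatidylethanolamine, and a methyltransferase can turn phosphatidylethanolamine into phosphatidylcholine. In the secreting mammary gland these lipids build the membranes of the endoplasmic reticulum and secretory vesicles and the membrane that wraps each milk fat globule.

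RNA came from needle biopsies of Romney ewes, 2 years old and in their first lactation, taken at day 135 of gestation (late pregnancy) or day 15 post partum (lactation). By the methods, ewes were biopsied in late pregnancy and again after lambing, so pools of the different states may hold the same ewes. Which ewes went into which pool is not given in the sources used here, and the tests treat the 15 pools as separate. Each library was made from RNA of several ewes pooled together, and 9 such libraries were of late pregnancy and 6 of lactation. The labels give 3 ewes to a late pregnancy pool and 2 to a lactation pool, whereas the methods give 3 to each. All ewes were daughters of dams fed ad libitum (HM), at maintenance (MM) or below maintenance (LM) in early gestation and at maintenance after it, with 3 late pregnancy and 2 lactation pools in each dam nutrition group. The labels call the pools of a group replicates. The p-values set differences against the spread between pools, which is not the spread between single ewes.

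The total of reads on genes was 7597938 to 19823166 in a library of late pregnancy and 10352962 to 25679416 in one of lactation. TMM scaling, which sets the bulk of genes level between libraries, gave factors of 1.56 to 1.83 in late pregnancy and 0.432 to 0.505 in lactation. HM lactation pool 1 stood apart on the second principal component, at -45.0 against -2.79 to 23.5 in the other 14 libraries. Luminal epithelial markers were present in every library and mostly higher in lactation. Their summed normalised level was 968 to 1193 in late pregnancy and 1607 to 1777 in lactation, and 4 of 6 were called higher. The fibroblast markers summed to 313 to 485 and then 171 to 272 (5 of 6 called lower), and the T cell markers to 27.0 to 43.4 and then 8.95 to 13.5 (5 of 5 called lower). Stromal and T cell markers were thus mostly lower in lactation. Endothelial markers summed to 39.5 to 53.1 and then 26.5 to 36.5 (3 of 4 called lower), macrophage markers to 39.8 to 51.6 and then 31.7 to 46.8 (1 called higher and 2 lower of 4), and myoepithelial markers to 259 to 293 and then 235 to 352 (3 called higher and 1 lower of 5). None of the 3 tested adipocyte markers was called (summed 529 to 1059 and then 723 to 965), with LEP, PLIN1 and CIDEC at 0 in at least 1 library. Almost all of that sum was FABP4 (524 to 1057 and then 716 to 962), with ADIPOQ at 1.62 to 8.10 and then 1.87 to 5.43. Hepatocyte markers summed to at most 6.80 and then 16.6 (1 of 2 tested called higher), with ALB and APOB at 0 in at least 1 library. The part of these shifts in the results below was not tested, and in bulk tissue fewer cells of a type and less RNA per cell cannot be told apart.

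Relative to the bulk of transcripts, which TMM scaling sets level, the listed kinase and cytidyltransferase transcripts were higher in lactation than in late pregnancy. With library size alone all 9 members were called lower, as were 95.2% of all tested features. All 3 listed kinases (CHKA, CHKB and ETNK1) and both listed cytidyltransferases (PCYT1A and PCYT2) were called higher. These 5 are called the activating enzymes here, a grouping made after the values were seen. Among the parallel isoforms outside the list, the kinase ETNK2 was not called and the cytidyltransferase PCYT1B was called lower. Both listed final transferases (CEPT1 and CHPT1) and the decarboxylase PISD were not called, and the serine exchange enzyme PTDSS1 was called lower. A call is an adjusted p under 0.05 in edgeR's quasi-likelihood test. So 5 of 9 members were called higher, against 33.1% of all tested features, and 1 of 9 lower, against 35.2%. In either direction 6 of 9 were called, against 68.4%. The median log2 change of the 9 members was 0.57 and that of all features -0.03. For 6 of 9 members the range of late pregnancy libraries lay apart from that of lactation libraries, against 40.2% of all features. With so many features called, the counts alone do not set the list apart.

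**Figure D1:**
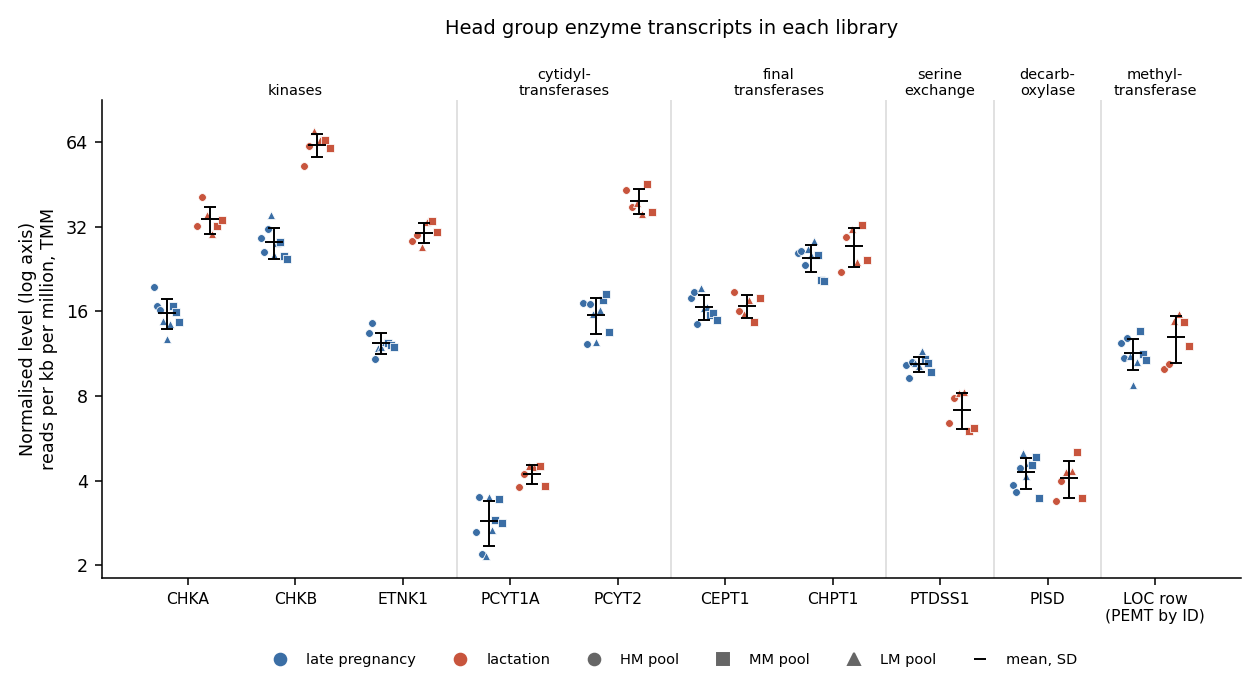
Normalised level of each enzyme transcript (RPKM with TMM-scaled library sizes, log axis) in the 9 late pregnancy and 6 lactation libraries, with marker shape for dam nutrition and bars for mean and SD. The states are separate for CHKA, CHKB, ETNK1, PCYT1A, PCYT2 and PTDSS1 and overlap for CEPT1, CHPT1, PISD and the LOC101112913 row. Directions are those with TMM scaling, and with library size alone all 9 members were lower in lactation.

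Normalised levels are RPKM computed with TMM-scaled library sizes, that is, exon reads divided by exon length and by the scaled size of the library, so that genes of different length can be compared. Coordinates are as deposited, on Oar_v3.1 by the labels. CHKA (chromosome 21, 44863420 to 44908806, 15 exons) and CHKB (chromosome 3, 224103872 to 224127667, 11 exons) encode the choline kinases, which also accept ethanolamine. CHKB was the most abundant member in both states. Its level ran from 24.6 through a median of 28.0 to 35.3 in late pregnancy and from 52.6 through 63.4 to 70.0 in lactation, so every lactation pool lay above every late pregnancy pool. The change was 1.15 ± 0.08 on the log2 scale (SE, n = 9 and 6), a 2.23-fold rise with an edgeR adjusted p of 7.02e-11. CHKA ran from 12.7 through 15.9 to 19.6 in late pregnancy and from 30.1 through 32.9 to 40.7 in lactation. HM pools held the highest CHKA value in each state. Its change was 1.11 ± 0.08 (log2, SE), 2.16-fold, with an edgeR adjusted p of 3.67e-10.

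ETNK1 (chromosome 3, 192307058 to 192367054, 9 exons) encodes an ethanolamine kinase. Its level was 10.8, 12.1 and 14.6 at the lowest, median and highest of the late pregnancy pools, and 27.0, 30.3 and 33.6 in lactation. The states were far apart for the spread within each. The log2 change was 1.31 ± 0.06 (SE), the smallest SE of the 9 members, and amounts to 2.47-fold at an edgeR adjusted p of 4.4e-13.

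PCYT2 (chromosome 11, 50150136 to 50155271, 15 exons) encodes the cytidyltransferase of the ethanolamine route. Its level was 15.6 ± 2.30 (SD, n = 9) in late pregnancy and 39.4 ± 4.03 (SD, n = 6) in lactation. The late pregnancy pools ranged from 12.2 through 16.1 to 18.4 and the lactation pools from 35.5 through 38.2 to 45.4, so the lowest lactation pool was far above the highest of late pregnancy. On the log2 scale the change was 1.34 ± 0.09 (SE), or 2.53-fold, at an edgeR adjusted p of 7.32e-11, which differed from that of ETNK1 by less than their SEs. PCYT1A (chromosome 1, 189081892 to 189132371, 10 exons) encodes the cytidyltransferase of the choline route, whose activity is regulated by binding to membranes. It was the member with the lowest level in late pregnancy, at 2.16, 2.83 and 3.50 (lowest, median and highest) on only 48 to 168 reads a library. Lactation gave 3.79, 4.34 and 4.52 on 28 to 84 reads, just above the late pregnancy range. Of the 5 members called higher it had the smallest log2 change, 0.57 ± 0.10 (SE) or 1.48-fold, with an edgeR adjusted p of 0.000555. SLC51A overlaps the PCYT1A locus over 2785 bases and had 0 to 1 read in any library.

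CEPT1 (chromosome 1, 87618136 to 87656088, 9 exons) encodes the transferase that completes both phospholipids, and CHPT1 (chromosome 3, 170568881 to 170585455, 8 exons) the one specific to choline. Neither was called. CEPT1 was 16.6 ± 1.72 (SD, n = 9) in late pregnancy and 16.8 ± 1.57 (SD, n = 6) in lactation, and its pools spread from 14.4 through 16.5 to 19.4 and from 14.6 through 16.8 to 18.8. Its log2 change was 0.00 ± 0.07 (SE), with an edgeR adjusted p of 0.966. The 95% interval of the difference between mean log2 levels ran from -0.15 to 0.18, which leaves out changes of the size seen in the kinases. CHPT1 varied more between lactation pools. Late pregnancy pools lay at 20.6, 25.5 and 28.6 (lowest, median and highest) and lactation pools at 22.1, 26.9 and 32.6, which overlap in part. Lactation pools HM 2, LM 1 and MM 1 (29.4, 31.5 and 32.6) lay above every late pregnancy pool. The log2 change of CHPT1 was 0.15 ± 0.11 (SE) at an edgeR adjusted p of 0.144, with a 95% interval from -0.08 to 0.36. SYCP3, a meiotic gene, overlaps the CHPT1 locus by 151 bases, had 14 to 199 reads and a log2 change of -0.59 (edgeR adjusted p 0.00204).

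PTDSS1 (chromosome 9, 80488990 to 80559268, 14 exons) encodes a phosphatidylserine synthase that exchanges the head group of phosphatidylcholine for serine. It was the member that fell. Late pregnancy pools lay at 9.26, 10.4 and 11.5 (lowest, median and highest) and lactation pools at 6.02, 7.13 and 8.26, without overlap, and the lowest lactation values were those of both MM pools. The log2 change was -0.55 ± 0.09 (SE), with an edgeR adjusted p of 3.8e-06. PISD (chromosome 17, 69762293 to 69767342, 7 exons) encodes the mitochondrial decarboxylase of phosphatidylserine and rested on 17 to 153 reads a library. Its pools overlapped, with the late pregnancy pools at 3.46, 4.42 and 5.02 (lowest, median and highest) and the lactation pools at 3.39, 4.14 and 5.05. Its log2 change was -0.06 ± 0.11 (SE), the edgeR adjusted p was 0.683, and the 95% interval ran from -0.30 to 0.15.

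The LOC101112913 row (chromosome 11, 34254946 to 34359250, 11 exons), whose gene ID belongs to the methyltransferase PEMT, was 11.4 ± 1.43 (SD, n = 9) in late pregnancy and 12.9 ± 2.47 (SD, n = 6) in lactation. Only 85.9% of its reads were uniquely placed, against 99.1% or more for each of the 9 members. Its log2 change was 0.20 ± 0.13 (SE) and it was not called (edgeR adjusted p 0.101). With uniquely placed reads alone the change was 0.26 and was called (edgeR adjusted p 0.0366). It was also called without HM lactation pool 1 (0.26, edgeR adjusted p 0.0399) and without HM lactation pool 2 (0.26, 0.0451). Among libraries whose columns name lane 8 it was 0.39 and was called (edgeR adjusted p 0.0213), and among those of lane 7 it was -0.013. All LM pools name lane 8 and the HM lactation pools lane 7, so lane and dam nutrition cannot be told apart here.

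The order of the levels changed with the state. In late pregnancy it was CHKB, CHPT1, CEPT1, CHKA, PCYT2, ETNK1, PTDSS1, PISD and PCYT1A. The libraries of neighbours in that order overlapped except between CHPT1 and CEPT1 and between PTDSS1 and PISD. In lactation the order was CHKB, PCYT2, CHKA, ETNK1, CHPT1, CEPT1, PTDSS1, PCYT1A and PISD. There, PCYT2 and CHKA, CHKA and ETNK1, ETNK1 and CHPT1, and PCYT1A and PISD overlapped. CEPT1, level with CHKA and PCYT2 in late pregnancy, was thus below both in every lactation library.

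Library scaling decides the sign of most of these changes, while PTDSS1 was lower with every scaling used. The deposited RPKM, which is divided by all reads on genes, had a lower mean in lactation for every one of the 9 members. CHKB, for instance, went from 40.5 ± 3.74 (SD, n = 9) to 26.2 ± 2.32 (SD, n = 6) RPKM and PTDSS1 from 15.0 ± 1.16 to 2.99 ± 0.377. With library size alone in place of TMM, the median of all features was -1.94 on the log2 scale and all 9 members were called lower, against 12705 of 13345 features (95.2%), so that count is near the background. The 5 activating enzymes lay above that median and PTDSS1 below it, at -0.56 for PCYT2, -0.60 for ETNK1, -0.75 for CHKB, -0.79 for CHKA, -1.35 for PCYT1A and -2.46 for PTDSS1, with CHPT1 at -1.75, CEPT1 at -1.90 and PISD at -1.96. Upper quartile scaling moved the median of all features to -0.18 and the share of calls that were higher from 48.4% to 36.3%, and 5 members were still called higher and 1 lower. The changes given with TMM are changes relative to the bulk of transcripts.

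The rank of a gene within its own library does not depend on scaling. By deposited RPKM among the tested features, CHKA stood at the 79.3 percentile in the median late pregnancy library and at 89.0 in lactation. ETNK1 went from 73.0 to 88.0, PCYT2 from 79.6 to 90.5, CHKB from 88.7 to 94.6 and PCYT1A from 33.9 to 45.3, each without overlap between states. PTDSS1 went from 68.9 to 57.6, also without overlap. CEPT1 (80.2 and 78.0), CHPT1 (87.5 and 86.3) and PISD (45.9 and 44.2) overlapped between states.

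**Figure D2:**
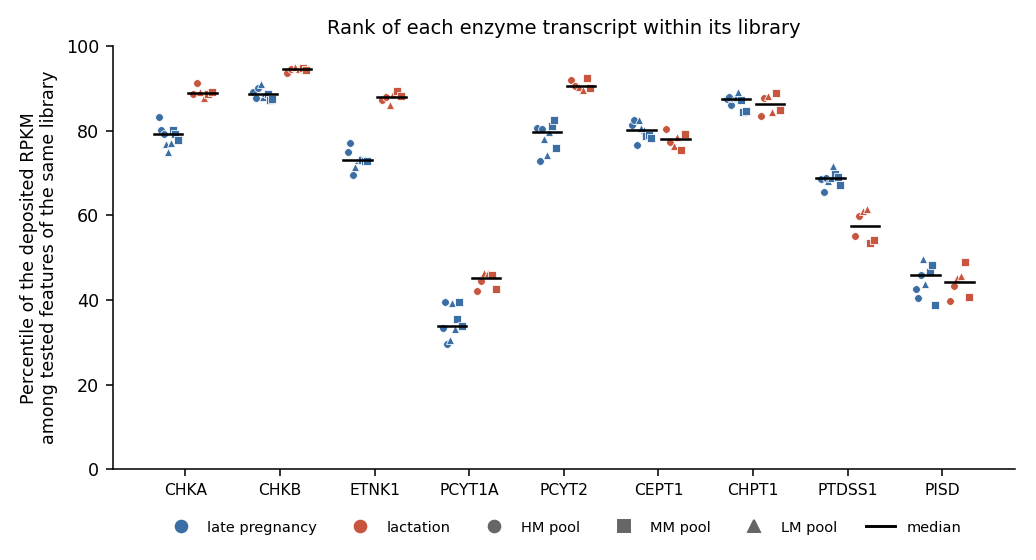
Percentile of the deposited RPKM of each member among the tested features of the same library (vertical axis, 0 to 100), for 9 late pregnancy and 6 lactation libraries, with bars at the median. The 3 kinases and both cytidyltransferases stand higher in every lactation library, PTDSS1 stands lower, and CEPT1, CHPT1 and PISD overlap.

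The makeup of the summed transcripts also differed between states. Of the summed RPKM of the 9 members, the kinases and cytidyltransferases made up 57.1% ± 2.03 (SD, n = 9) in late pregnancy and 75.5% ± 0.517 (SD, n = 6) in lactation, from a highest late pregnancy value of 59.5% to a lowest lactation value of 74.7%. This grouping was made after the values were seen and carries no test. CHKB was the largest part in both states (21.5% and 27.7%). CHPT1 went from 18.9% to 12.0%, CEPT1 from 12.7% to 7.46% and PTDSS1 from 7.95% to 3.17%. PCYT1A, although called higher against all features, had means of 2.21% and 1.87% of the sum, and its libraries overlapped between states (1.53% to 2.87% and 1.76% to 2.01%).

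Ratios of paired enzymes within a library are also free of scaling, and 5 were compared by a two-sided exact permutation test of the 15 libraries, adjusted over the 5. PCYT1A over PCYT2, the choline against the ethanolamine cytidyltransferase, was 0.190 ± 0.0581 (SD, n = 9) in late pregnancy and 0.108 ± 0.0133 (SD, n = 6) in lactation. Every lactation pool, from 0.0878 to 0.126, lay below the late pregnancy range of 0.129 to 0.285, although the highest and lowest values of the states nearly met. The log2 difference was -0.77 ± 0.16 (SE), with an exact permutation p of 0.000999 and 0.0025 adjusted. With RPKM + 1 in place of RPKM it was -0.47 (adjusted exact permutation p 0.0137). That version is not free of scaling, since the added 1 weighs more at the lower RPKM of lactation. Within lane 7 it was -0.95 and within lane 8 it was -0.61, and neither passed (adjusted exact permutation p 0.0714 and 0.134). The few pools of a lane allow few splits, so the smallest possible p is large. In lane 7 the ratio reached that smallest p, so the test cannot decide there. In lane 8 it did not, as other splits gave as large a difference.

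PTDSS1 over PISD, the enzymes that make and decarboxylate phosphatidylserine, was 2.44 ± 0.228 (SD, n = 9) in late pregnancy and 1.77 ± 0.292 (SD, n = 6) in lactation. Late pregnancy pools lay from 2.08 to 2.81 and lactation pools from 1.19 to 1.97, without overlap. The log2 difference was -0.48 ± 0.12 (SE). Its exact permutation p of 0.0002 is the smallest that these numbers of libraries can give (0.000999 adjusted). Within lanes 7 and 8 it was -0.56 and -0.39, and neither passed (adjusted exact permutation p 0.0714 and 0.0893). The few splits within a lane again keep this test from deciding.

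The isoform ratios differed by less than the spread between pools. CHKA over CHKB was 0.565 ± 0.0821 and 0.547 ± 0.0745 (SD, n = 9 and 6), a log2 difference of -0.05 with a 95% interval from -0.28 to 0.19 (exact permutation p 0.683 adjusted). CHPT1 over CEPT1 was 1.49 ± 0.143 and 1.66 ± 0.421 (SD, n = 9 and 6), with a log2 difference of 0.12, a 95% interval from -0.16 to 0.41 and an exact permutation p of 0.471 adjusted. In lactation this ratio spread from 1.18 in HM pool 1 to 2.23 in MM pool 1. The LOC101112913 row over PCYT1A was 4.12 ± 1.08 and 3.05 ± 0.416 (SD, n = 9 and 6). Its states overlapped, and its exact permutation p of 0.0408 became 0.0679 after adjustment. Adjusted over the 5 ratios, the exact permutation p was 0.0477 without HM late pregnancy pool 2 and 0.0161 without LM late pregnancy pool 2.

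**Figure D3:**
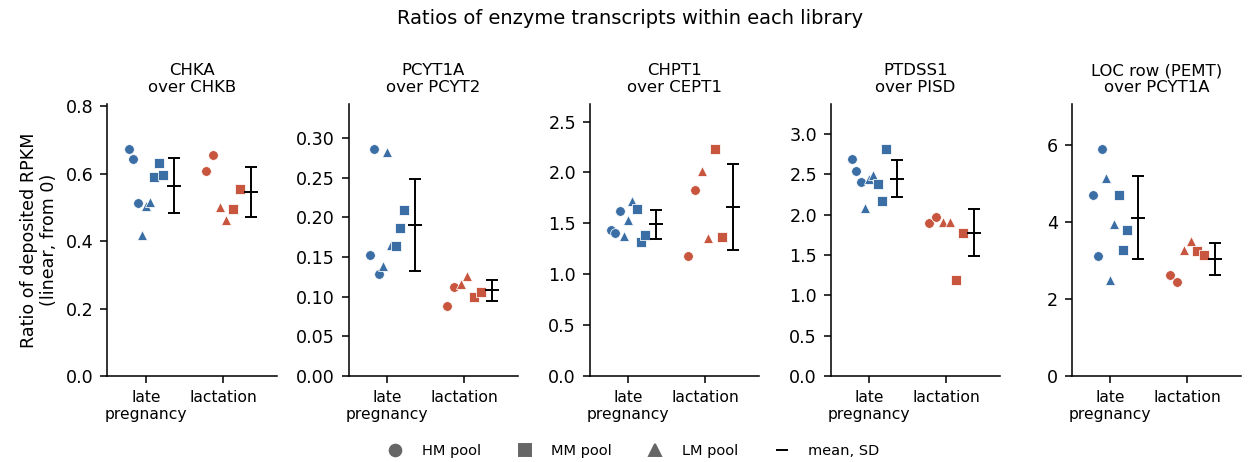
Ratio of the deposited RPKM of paired enzymes in each library (linear axes from 0), with marker shape for dam nutrition and bars for mean and SD beside the 9 late pregnancy and 6 lactation points. PCYT1A over PCYT2 and PTDSS1 over PISD are lower in every lactation library, and the other ratios overlap.

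Reads inside genes but outside annotated exons, called intron reads here, gave another measure of the same loci, scaled by their own TMM factors. Of 10344 features tested, 29.0% were called higher and 29.0% lower. Of the 8 members tested, 4 were called higher and 3 lower. PCYT2 was not tested, with 0 to 11 intron reads a library. The log2 changes of the kinases were close to those in exon reads, at 1.19 ± 0.09 (SE) for CHKA, 1.22 ± 0.10 for CHKB and 1.33 ± 0.08 for ETNK1, with edgeR adjusted p of 4.17e-11, 2.33e-09 and 6.43e-12. Intron reads were abundant for CHKA and ETNK1, at 76.9% ± 1.60 and 62.9% ± 2.32 (SD, n = 9) of their late pregnancy reads.

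Other members differed between the measures, though the difference itself was not tested. For PCYT1A, 83.9% ± 2.04 (SD, n = 9) of late pregnancy reads were intronic, and their log2 change of 0.12 ± 0.06 (SE) was not called (edgeR adjusted p 0.174). With the size factors of the exon reads it was 0.21 and was called (edgeR adjusted p 0.0217). Under a filter of 10 or more intron reads a library it was -0.0030. The final transferases, not called in exon reads, were called lower in intron reads, at -0.39 ± 0.06 (log2, SE) for CEPT1 and -0.84 ± 0.18 for CHPT1 (edgeR adjusted p 0.000142 and 7.92e-05). CHPT1 rested on 5 to 24 intron reads in lactation and CEPT1 on 84 to 199.

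PTDSS1 fell in intron reads as in exon reads, by 0.58 on the log2 scale (edgeR adjusted p 0.0271), on 12 to 26 intron reads in lactation. Without MM lactation pool 1 its change was -0.38 (edgeR adjusted p 0.136) and without MM lactation pool 2 it was -0.53 (0.0687), so the call rests on each of them. With the size factors of the exon reads it was -0.49 and the call was lost too (edgeR adjusted p 0.0569). PISD was called higher in intron reads at 0.50 ± 0.19 (log2, SE; edgeR adjusted p 0.017). Its call was lost without LM lactation pool 1 (0.44, edgeR adjusted p 0.0542) and without MM lactation pool 1 (0.40, 0.0812). The intron share of PISD reads was 29.5% ± 2.75 (SD, n = 9) in late pregnancy and 38.7% ± 4.60 (SD, n = 6) in lactation. The LOC101112913 row changed by -0.26 in intron reads and was not called (edgeR adjusted p 0.0554), although it was without any 1 of 4 libraries (LM late pregnancy pools 1 and 3, HM lactation pool 1 and MM lactation pool 1), with changes of -0.36 to -0.29 and edgeR adjusted p of 0.0129 to 0.038. It was also called under a filter of 10 or more intron reads a library (-0.39, edgeR adjusted p 0.00626) and under the replicate block (-0.28, 0.0467).

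**Figure D4:**
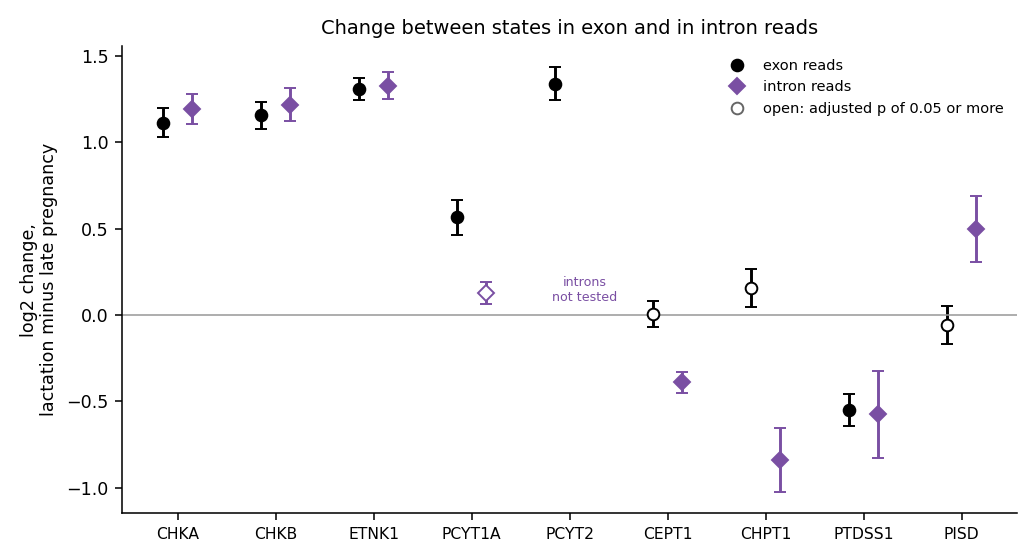
Log2 change from late pregnancy to lactation of each member in exon reads (black circles) and intron reads (purple diamonds), with SE from the spread between libraries and open symbols for an edgeR adjusted p of 0.05 or more. The 3 kinases lie above 1 in both measures, while CEPT1, CHPT1 and PISD lie near 0 in exon reads and away from it in intron reads, all with TMM scaling (with library size alone all 9 exon changes are negative).

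Dam nutrition was compared among the 9 late pregnancy pools, 3 to a group. By edgeR 0 of 13747 features were called (0.0%), with 571 at an unadjusted p under 0.05 and 20 called by the DESeq2 likelihood ratio test, and no member was called by either. CHKA had the lowest unadjusted p of the members, 0.0283, with an edgeR adjusted p of 1.00. Its group means were 17.5 ± 1.84 (SD, n = 3) in HM, 15.8 ± 1.03 in MM and 14.0 ± 1.10 in LM. Across the 9 members the highest group mean was 1.07 to 1.25 times the lowest. CHPT1 was 25.1 ± 1.54, 22.2 ± 2.79 and 26.9 ± 1.64 in the same order of groups, which did not pass (edgeR adjusted p 1.00).

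The states did not overlap for the 6 called members, so the direction of change within each dam nutrition group was fixed by that. Only the size of the change could differ. PCYT2 was 2.62-fold, 2.46-fold and 2.52-fold higher in lactation in HM, MM and LM pools, and ETNK1 was 2.26-fold, 2.65-fold and 2.50-fold higher. PTDSS1 was at 0.709, 0.590 and 0.768 of its late pregnancy level. The interaction of state and dam nutrition was called for 0 of 13345 features by edgeR (0.0%), with 876 at an unadjusted p under 0.05 and 21 called by DESeq2, and for no member. PTDSS1 had the lowest unadjusted p of the 9, 0.0744 (edgeR adjusted p 0.769). For the LOC101112913 row the ratio of lactation to late pregnancy was 0.845 in HM, 1.13 in MM and 1.50 in LM pools, with an unadjusted p of 0.00431 and an edgeR adjusted p of 0.728.

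The other genes of phospholipid metabolism moved in both directions. Of 61 genes in 7 lists, 50 were tested, of which 19 were called higher, 17 lower and 14 not called. Over all tested features 33.1% were called higher and 35.2% lower, which is the background for each list below. The 50 tested genes had a median log2 change of -0.02 beside -0.03 for all features, so the lists lay near that background. With library size alone 4 were called higher and 44 lower, where 95.2% of all tested features were called lower. Of 4 tested parallel isoforms of the head group enzymes, 0 were called higher and 2 lower. ETNK2 changed by 0.02 on the log2 scale, on 5 to 21 reads in lactation (edgeR adjusted p 0.955), and EPT1 by -0.19 (0.379). PCYT1B, the other choline cytidyltransferase, was at 0.890 ± 0.340 (SD, n = 9) in late pregnancy and 0.139 ± 0.200 (SD, n = 6) in lactation, on 0 to 5 reads there (edgeR adjusted p 0.00053). PTDSS2, the other phosphatidylserine synthase, found by its gene ID under LOC101107006, fell by 0.74 on the log2 scale (edgeR adjusted p 0.000231), from 10.5 ± 1.54 to 6.41 ± 1.69.

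Genes that supply the acceptor diacylglycerol included the largest rise of the lists, that of LPIN1. Of 10 tested, 6 were called higher and 3 lower, against 33.1% and 35.2% of all tested features. LPIN1, a phosphatidate phosphatase, went from 0.545 ± 0.159 to 57.3 ± 20.1 (SD, n = 9 and 6), a log2 change of 6.74 ± 0.25 (edgeR adjusted p 7.98e-16). Its lactation pools ranged from 31.5 to 90.4, all above the late pregnancy range of 0.328 to 0.809. GPAM, which acylates glycerol 3-phosphate, was the most abundant gene of the lists over all libraries, at 112 ± 17.0 and 905 ± 88.6 (SD, n = 9 and 6) with a log2 change of 3.01 ± 0.09 (edgeR adjusted p 7.98e-16).

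Genes of the substrates and of neighbouring lipids were mixed. Of 4 tested transporters of choline and ethanolamine, 2 were called higher and 2 lower. SLC44A1, a choline transporter and the most abundant of them, fell by 0.55 on the log2 scale (edgeR adjusted p 3.17e-07), and FLVCR1, which transports heme and choline, changed by 0.70 ± 0.19 (SE; 0.00117). Of 6 genes for inositol and glycerol phospholipids, 1 was called higher and 4 lower. CDS1, a synthase of CDP-diacylglycerol, fell by 2.19 (edgeR adjusted p 1.92e-09), and CDIPT, the phosphatidylinositol synthase, by 0.35 (9.87e-05).

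Of 9 acyl chain remodelling genes, 3 were called higher and 2 lower. The lysophospholipid acyltransferase LPCAT4 went from 2.69 ± 0.412 to 33.0 ± 4.41 (SD, n = 9 and 6; log2 change 3.59 ± 0.11, edgeR adjusted p 2.11e-16), while LPCAT3, the most abundant, changed by 0.08 (0.461). Of 9 genes for breakdown and choline recovery, 4 were called higher and 2 lower, with CHDH, which oxidises choline, at a log2 change of 1.74 ± 0.40 (edgeR adjusted p 2.25e-05) and GDE1, a glycerophosphodiester phosphodiesterase, at 0.35 ± 0.04 (9.84e-06). Of 8 methyl donor genes, 3 were called higher and 2 lower. AHCYL2, a relative of the enzyme that clears S-adenosylhomocysteine, changed by 3.05 ± 0.10 (log2, SE; edgeR adjusted p 7.65e-16), and MAT2A, which makes S-adenosylmethionine and was the most abundant, by -0.21 ± 0.10 (0.0226). BHMT and BHMT2 had no read in any library.

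**Figure D5:**
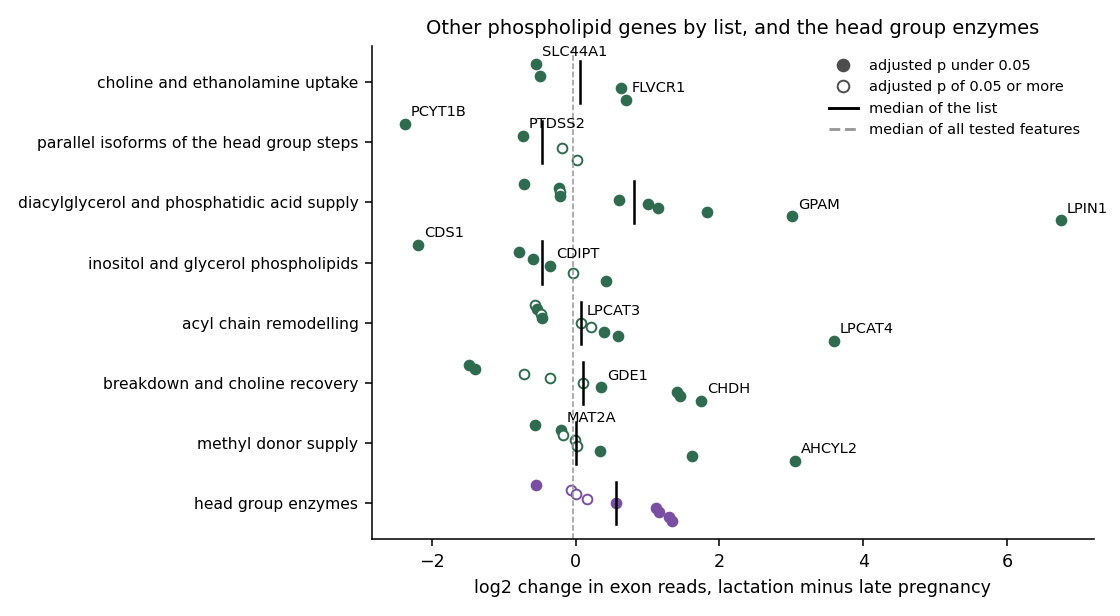
Log2 change from late pregnancy to lactation in exon reads (horizontal axis) of 50 tested genes in 7 lists and of the 9 head group enzymes, with filled circles for an edgeR adjusted p under 0.05, a bar at each list's median and a dashed line at the median of all tested features. LPIN1, LPCAT4, AHCYL2 and GPAM lie farthest to the right and PCYT1B and CDS1 farthest to the left, all with TMM scaling. With library size alone 44 of the 50 were called lower, as were 95.2% of all tested features.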

How the data were processed

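Total RNA of the pooled biopsies was made into TruSeq libraries and sequenced by the authors on a HiSeq instrument in 100 bp pairs. The labels have each library run on 2 lanes and the reads combined. Each deposited column, however, names 1 lane (7 or 8), by which the lane alternatives divide the libraries. All LM pools name lane 8 and the HM lactation pools lane 7, so the lane alternatives also divide the dam nutrition groups. The authors mapped reads in CLC Genomics Workbench to the sheep genome (Oar_v3.1 per the labels, a later release per the methods), and coordinates are as deposited. The deposited counts are reads on exons, uniquely placed reads and reads on whole genes. The deposited RPKM divide exon reads by exon length and by the sum of a library's gene reads, and the deposited normalised expression values are the authors' RPKM after quantile normalisation, treated here as a score. Deposited columns of the authors' Baggerly test, with fold changes, p-values and false discovery rates, were not used.

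Exon read counts were compared in edgeR 4.0.16 (R 4.3.3) with TMM scaling, filterByExpr and the quasi-likelihood F-test, adjusted by Benjamini-Hochberg over all tested features. Features with no annotated transcript used reads on the whole gene. Intron reads were obtained by subtracting exon reads from all reads of a gene. Intervals use the pooled spread of log2 levels between libraries, and SEs that of each state. The fits were also run on simulated data with 200 changed features, balanced up and down. The simulation held no large shift in makeup between the states, so it does not test the scaling. Alternatives used DESeq2 1.42.0, limma 3.58.1 on log2 of the quantile-normalised values plus 1, other scalings, filters and lanes, a replicate block and each library left out. Tables and ratios used Python 3.11.15. The kit does not mark strand, so reads of overlapping genes cannot be told apart.

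The members and all lists were chosen with earlier results of these data known. The text names every member and, from each list, the called gene with the largest change (where the mean of either state reaches an RPKM of 1) and the gene with the highest mean RPKM. ETNK2, EPT1, marker genes, BHMT, BHMT2 and overlapping genes are named as checks. OXTR, LIPE, TEK and CD163 were not analysed here. RefSeq names gave the rows of PEMT and PTDSS2, and no sequence was used here.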

Additional observations from a re-analysis of the deposited data

Results flagged for a closer look

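In 1 of the 32 groups of values checked, a pool lay far from the others of its state. The PTDSS1 over PISD ratio of MM lactation pool 1 was 1.193, while the nearest of the other 5 lactation pools was at 1.772. That gap is 0.7467 of the whole range of the lactation pools, above the limit of 0.625 for 6 values. Chance flags about 1 in 20 such groups. This pool had the highest PISD level of the lactation pools (5.05) and the lowest PTDSS1 level (6.02). Without it the log2 difference of the ratio between states was -0.37 instead of -0.48, with an adjusted exact permutation p of 0.0025.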

How the results depend on the processing

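The 5 members called higher and 1 lower stayed so with DESeq2, upper quartile scaling, no filter, at least 10 reads in every library, uniquely placed reads, limma, the dam nutrition covariate, the replicate block, either lane and all 15 single omissions. With library size only, 0 members were called higher and 9 lower, where 95.2% of all tested features were called lower. The log2 changes were then -1.35 for PCYT1A, -0.56 for PCYT2, -0.79 for CHKA, -0.75 for CHKB and -0.60 for ETNK1. CEPT1 was at -1.90, CHPT1 at -1.75 and the LOC101112913 row at -1.70. The pathway lists gave 4 higher and 44 lower, against the same 95.2%. CEPT1, at 0.00, turned negative with upper quartile scaling (-0.15), no filter (-0.046), the filter of 10 reads (-0.080), limma (-0.13), the replicate block (-0.045) and lane 7 (-0.054), never past the threshold, and ran from -0.027 to 0.045 over the omissions. Also uncalled, CHPT1 was -0.063 with limma, PISD 0.0090 in lane 7, the LOC101112913 row -0.013 in lane 7 (called in lane 8, 0.39, edgeR adjusted p 0.0213), and intron reads of PCYT1A -0.0030 with the filter of 10 (called with exon size factors, 0.21). The LOC101112913 row over PCYT1A passed with RPKM + 1 (-0.56, adjusted exact permutation p 0.00949). The added 1 weighs more at the lower RPKM of lactation, so that version depends on scaling. Over the omissions, with RPKM, the LOC101112913 row over PCYT1A ran from -0.49 to -0.33 and CHKA over CHKB from -0.10 to 0.00033. PCYT1A over PCYT2 ran from -0.84 to -0.69 and PTDSS1 over PISD from -0.51 to -0.37. Within lanes 7 and 8 PCYT1A over PCYT2 was -0.95 and -0.61, and PTDSS1 over PISD -0.56 and -0.39. None passed (adjusted exact permutation p 0.0714 to 0.134). A lane holds few pools, so the smallest possible p is large, but PCYT1A over PCYT2 in lane 8 did not reach that smallest p. Intron calls were 3 to 5 higher and 2 to 3 lower over all alternatives, and the replicate block lost that of PISD (0.47, edgeR adjusted p 0.0543) and exon size factors that of PTDSS1 (-0.49, 0.0569). The sources used here tie no pool number to the same ewes in both states. Deviations of log levels from the state mean correlated at -0.028 to 0.092 between same-numbered pools of the states. Under the replicate block 8464 features were called instead of 9122. Without HM lactation pool 1, which stands apart, the counts were again 5 and 1. Depth limits PCYT1A, PISD and PCYT1B, and the intron reads of CHPT1, PTDSS1 and PISD most.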
